A study of Homo sapiens with 4 samples.

Results

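HBEGF, AREG, TGFA, EGFR, DUSP4, DUSP5, DUSP6, SPRY2, SPRY4 and SPRED1 encode EGF receptor ligands, the receptor itself and feedback inhibitors of ERK signaling, and their nascent RNA was measured in cells given a wild-type or a mutant RNA polymerase II. They are 10 of the 60708 genes in a table of TT-seq counts and were picked by gene symbol. All 10 were found and passed the filter on low counts. The choice was made with the T4A and WT values of this table already known. The differences between the groups are therefore given for these genes as a description, with no p-value and no call.

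The samples were HEK293 cells, a human embryonic kidney line, in which endogenous RPB1, the largest subunit of RNA polymerase II, carried a degron, a tag that makes a protein degradable on addition of auxin. Each culture was transiently transfected with a plasmid for RPB1 whose C-terminal domain held 52 repeats, either of the wild-type sequence (52X WT) or with threonine 4 replaced by alanine in every repeat (52X T4A). Auxin was added to all cultures 48 h later and kept for 48 h, RNA was labeled with 4-thiouridine for 20 min, and 2 libraries were made per group. All cultures thus shared the degron, the transfection and auxin, and none of the libraries came from cells without auxin or without a plasmid. What share of the cells took up plasmid and whether the line is 1 clone are not given in the sources used here. Nothing states that the replicates were separate cultures, so the spread between them may be technical.

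TT-seq pulls down RNA made during a short label, so counts over a gene reflect its recent synthesis more than its stored mRNA. Ligands such as HBEGF are made as membrane-bound precursors, are cut free by ADAM proteases and bind EGFR, which through RAS, RAF and MEK activates the kinase ERK. ERK signaling induces DUSP phosphatases, which dephosphorylate MAP kinases, and Sprouty and SPRED proteins, which act at or above RAS, so that the pathway limits itself. HEK293 cells grown in serum receive steady growth factor input.

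The libraries held 33188536 to 45605027 counts, and log2 CPM of the 23321 tested genes correlated at 0.985 to 0.996 between libraries, lowest for T4A replicate 1. Of 10 marker genes fixed for HEK293, 9 exceeded 1 CPM in every library, and their summed level was 266 to 338 CPM. NEFM, the remaining marker, had 0 to 6 counts. The 9 matched markers of other cell types summed to 3.90 to 5.73 CPM. Of these, 1 exceeded 1 CPM in every library, COL1A1, with a mean of 2.30 CPM, and INS was at 0 in all libraries. The HEK293 marker PAX2 was about as low as COL1A1, at 1.82 to 2.78 normalized CPM. POLR2A, the RPB1 gene, had 9640 and 8720 normalized CPM in WT and 7492 and 8083 in T4A (log2 fold change −0.24, SE 0.25, adjusted p = 0.659, edgeR's quasi-likelihood test). The table does not separate plasmid from endogenous RPB1 reads, and the degron acts on protein, so this value does not check the depletion. In these bulk libraries, a gene made in fewer cells cannot be told apart from a gene made at a lower rate per cell.

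The promoters of 3 genes are shown first because HBEGF had the highest fold change of T4A over WT among the 10 genes, EGFR was the gene that lay lower in both T4A libraries, and AREG carried a pair of motifs that the other matched promoters lacked. Each is the 250 bases before the transcription start in RefSeq (GRCh38.p14), read 5′ to 3′ on the strand of the gene. Capitals mark matches to the motifs described after the sequences. HBEGF lies on the minus strand (chr5:140346604-140346853), AREG on the plus strand (chr4:74444886-74445135) and EGFR on the plus strand (chr7:55018767-55019016).
HBEGF: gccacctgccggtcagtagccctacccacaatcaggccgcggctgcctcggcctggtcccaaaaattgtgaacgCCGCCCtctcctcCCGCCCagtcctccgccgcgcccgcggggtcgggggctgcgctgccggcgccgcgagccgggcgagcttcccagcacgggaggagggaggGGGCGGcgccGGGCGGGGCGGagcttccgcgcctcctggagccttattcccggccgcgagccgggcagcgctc
AREG: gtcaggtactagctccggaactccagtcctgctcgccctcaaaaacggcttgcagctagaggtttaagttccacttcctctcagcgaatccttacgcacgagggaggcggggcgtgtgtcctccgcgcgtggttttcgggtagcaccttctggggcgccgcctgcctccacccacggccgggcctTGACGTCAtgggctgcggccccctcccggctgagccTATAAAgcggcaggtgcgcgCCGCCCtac
EGFR: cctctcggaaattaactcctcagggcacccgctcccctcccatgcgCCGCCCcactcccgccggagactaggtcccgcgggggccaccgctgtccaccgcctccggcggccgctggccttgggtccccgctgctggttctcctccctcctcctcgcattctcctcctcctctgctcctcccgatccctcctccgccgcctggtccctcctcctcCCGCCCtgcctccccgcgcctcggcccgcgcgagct

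RefSeq promoters matched 8 of the genes, all but DUSP4 and DUSP5. Their GC content was 57.2% to 78.4%, against a median of 58.0% over 35116 promoter entries. For HBEGF, AREG, EGFR, DUSP6, SPRY2 and SPRED1 the RefSeq start was the start in the count table, and it lay 367 bases from it for TGFA and 2208 bases from it for SPRY4. The GC box GGGCGG, searched on both strands and counted with overlaps, matched 5 times in HBEGF, where 2 of the matches overlap, 3 times in TGFA, 2 times each in EGFR and SPRY2 and 1 time each in AREG, SPRY4 and SPRED1. It was present in 7 of the 8 promoters and in 42.6% of all entries. The cyclic AMP response element TGACGTCA was found in AREG alone of the 8, 65 bases before the start, and in 1.65% of all entries. AREG was also the single one of the 8 with the TATA box letters TATAAA, 29 bases before the start, which 10.7% of all entries hold on either strand. No match was found in the 8 windows for the AP-1 letters TGANTCA (6.57% of all entries), for the ETS letters CCGGAAG (8.52%) or for the CArG box bound by SRF (1.16%). A match to these letters is a description of the sequence and not a bound site.

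**Figure D1:**
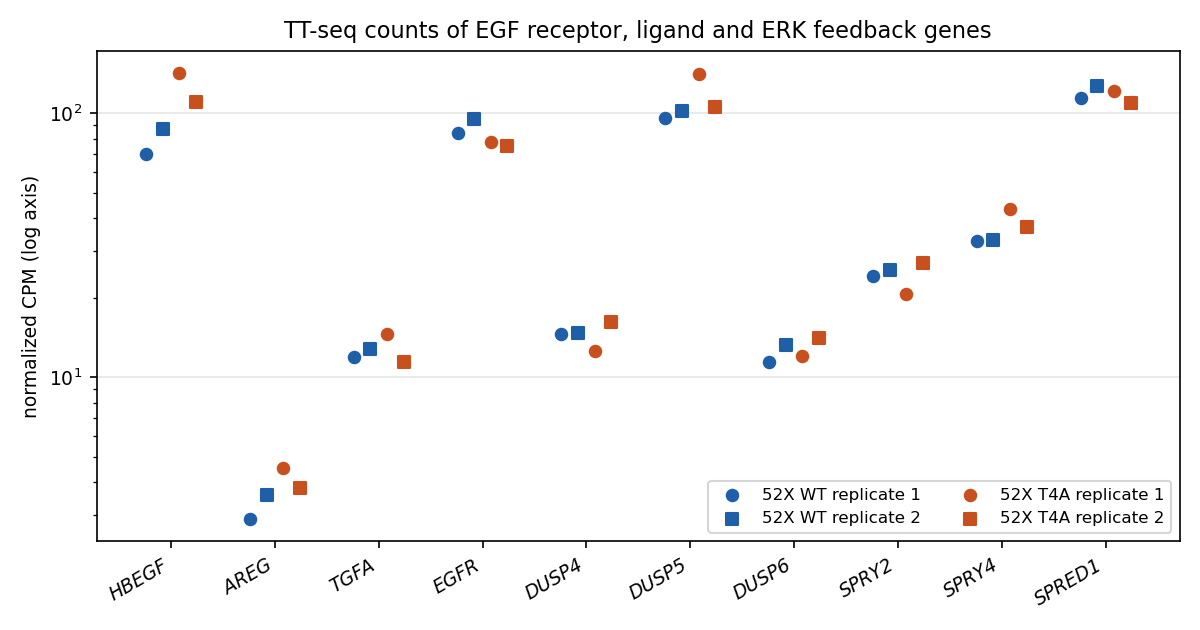
Normalized CPM (log axis) of the 10 genes in each library, with 52X WT in blue, 52X T4A in orange, replicate 1 as circles and replicate 2 as squares. Both T4A libraries lie above both WT libraries for HBEGF, AREG, DUSP5 and SPRY4 and below them for EGFR, and the groups overlap for the other 5 genes.

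The plot of values by library gives the pattern of the 10 genes. Both T4A libraries lay above both WT libraries for 4 of them (HBEGF, AREG, DUSP5 and SPRY4) and below for 1 (EGFR), while the groups overlapped for the other 5. Over all tested genes, 24.8% lay above and 24.7% below without overlap, so such a pattern is common in this table. Of the 15329 tested protein-coding genes, 3269 lay above and 4472 below. The median log2 fold change of T4A over WT was 0.08 for the 10 genes, −0.00076 for all tested genes and −0.04 for the protein-coding ones. Without WT replicate 1 the median of the 10 genes was −0.011. Without T4A replicate 1 7 genes lay above and 3 below the WT libraries. A lone library falls outside the WT range more easily, and the share of all tested genes was not counted for this fit. Since the genes were picked with this contrast known, nothing is read from these counts.

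HBEGF, the heparin-binding EGF-like growth factor, which binds EGFR and ERBB4, showed the largest difference of the 10. The gene spans 13.8 kb on chromosome 5 (140332843 to 140346603 of GRCh38). It had 2741 and 3843 counts in WT replicates 1 and 2 and 4764 and 3826 in T4A replicates 1 and 2, which is 70.0 and 87.2 normalized CPM in WT and 142 and 111 in T4A. Both T4A libraries were higher than both WT libraries, and T4A replicate 1 was the highest. The group means were 78.6 ± 12.1 (SD, n = 2) and 126 ± 22.1 (SD, n = 2) normalized CPM, a 1.61-fold difference with a log2 fold change of 0.68 (SE 0.14). The replicates of a group differed by 0.31 in WT and 0.36 in T4A on the log2 scale, against medians of 0.14 and 0.18 over all tested genes, so HBEGF varied more between replicates than most genes. Leaving out T4A replicate 1 gave a log2 fold change of 0.50, and leaving out T4A replicate 2 gave 0.84, the lowest and highest of the 4 such fits. No gene of the table overlaps HBEGF or starts within 5 kb of its start on the other strand.

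The 3 genes whose profile over the 4 libraries was most like that of HBEGF were CTXND1, TENT5C and FRG2B. Likeness was the Euclidean distance between log2 CPM values centred on each gene's mean. It was 0.098, 0.11 and 0.11 for these genes, against a median of 0.83 over 12939 protein-coding genes. A gene with a flat profile would lie 0.76 from HBEGF. CTXND1 and FRG2B were low, at 1.43 to 3.22 and 1.23 to 2.65 normalized CPM, where the 0.5 added before the log weighs more. TENT5C had the level nearest to HBEGF in counts, with 81.6 and 97.2 normalized CPM in WT and 174 and 134 in T4A. In all, 28 genes lay within a distance of 0.2, and 4 libraries give few ways to tell profiles apart. The libraries share their depth and normalization across all genes.

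AREG, or amphiregulin, a further EGFR ligand, was the least counted of the 10 genes (9.87 kb on chromosome 4, 74445136 to 74455005). Its counts were 114 and 158 in WT and 152 and 132 in T4A. The exact 95% Poisson intervals of the counts cover counting error only and take each count as independent. They were 94.0 to 137 and 134 to 185 in WT and 129 to 178 and 110 to 157 in T4A. All AREG counts were even, and if both ends of a fragment were counted, these intervals are too narrow. Normalized CPM were 2.91 and 3.58 in WT and 4.53 and 3.82 in T4A, so that all T4A values were higher, T4A replicate 2 by little. The log2 fold change was 0.36 (SE 0.23), and it was 0.21 without WT replicate 1 and 0.24 without T4A replicate 1. ENSG00000250532, a noncoding gene on the other strand that starts 4679 bases away, had 2 to 16 counts. The CRE and TATA box of the AREG promoter, printed above, thus belong to a gene with few nascent counts in these cells.

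TGFA, transforming growth factor alpha, spans 107 kb on chromosome 2 (70447284 to 70554193) and had 395 to 564 counts. Normalized CPM were 11.9 and 12.8 in WT and 14.6 and 11.4 in T4A, so the T4A replicates lay on either side of both WT values. The log2 fold change was 0.07 (SE 0.16), and it was −0.11 without T4A replicate 1. TGFA-IT1, a noncoding gene within TGFA on the same strand, covers 1111 bases and is listed at 0 in all libraries. Reads in a shared span may be assigned to neither gene, so this 0 may not measure its transcription.

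EGFR, the receptor tyrosine kinase that these ligands bind, spans 193 kb on chromosome 7 (55019017 to 55211628). It had 3288 and 4182 counts in WT and 2614 and 2593 in T4A, or 84.0 and 94.9 normalized CPM in WT and 77.9 and 75 in T4A. Both T4A libraries were lower than both WT libraries, with means of 89.4 ± 7.69 (SD, n = 2) and 76.4 ± 2.03 (SD, n = 2), and the gap between the WT replicates (0.17 on the log2 scale) was close to the difference between the groups (log2 fold change −0.23, SE 0.09). With 1 library left out the log2 fold change ran from −0.32, without WT replicate 1, to −0.16, without WT replicate 2. EGFR-AS1, a noncoding gene of 9185 bases inside EGFR on the other strand, had 2 and 0 counts in WT and 4 and 4 in T4A. The libraries were strand-specific, but whether the counting used strand is not given in the sources used here, so reads of overlapping genes on opposite strands may not be separated for EGFR, DUSP6 and SPRY4.

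Within each library, the density of HBEGF (normalized CPM per kb of gene span) was 11.7 and 12.9 times that of EGFR in WT and 25.5 and 20.7 times in T4A. This ratio does not depend on the scaling of the libraries. Both the higher HBEGF and the lower EGFR values in T4A enter it.

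**Figure D2:**
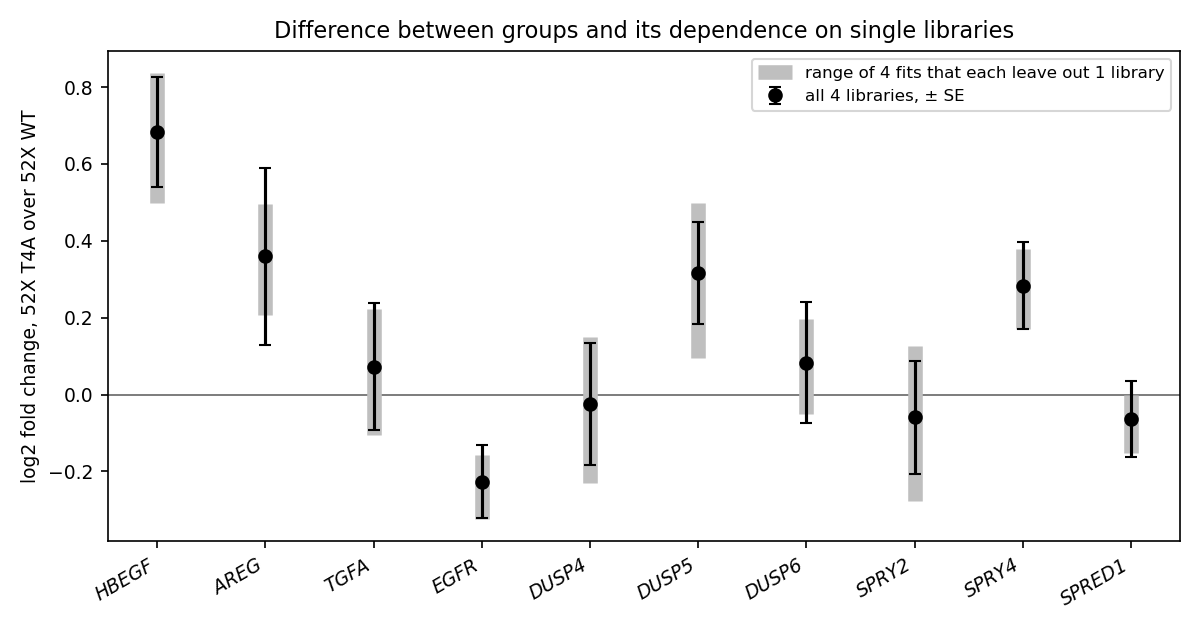
Log2 fold change of 52X T4A over 52X WT for each gene, as points with standard errors from the fit to all 4 libraries, and gray bars for the range of the 4 fits that each leave out 1 library. The bars of HBEGF, AREG, DUSP5 and SPRY4 stay above 0, those of EGFR and SPRED1 stay below 0, and the others cross 0.

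DUSP5, DUSP6 and DUSP4 encode dual-specificity phosphatases of MAP kinases. DUSP5, a nuclear phosphatase of ERK, spans 13.6 kb on chromosome 10 (110497907 to 110511533) and had 3764 and 4480 counts in WT and 4736 and 3638 in T4A. In normalized CPM the values were 96.2 and 102 in WT and 141 and 105 in T4A. T4A replicate 1 stood well above the other 3 libraries, which lay close together. The log2 fold change was 0.32 (SE 0.13) with all libraries and 0.10 without T4A replicate 1, so most of the difference rests on that library. The noncoding gene DUSP5-DT, which starts 1317 bases away and runs in the other direction, had 144 and 148 counts in WT and 164 and 165 in T4A (log2 fold change 0.46, SE 0.20, adjusted p = 0.330 from edgeR's test).

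DUSP6, a cytoplasmic phosphatase with a preference for ERK and the shorter of these 3 genes (5.27 kb on chromosome 12, 89347235 to 89352501), gave 11.4 and 13.3 normalized CPM in WT and 12.1 and 14.1 in T4A. The groups overlapped, and the log2 fold change was 0.08 (SE 0.16). ENSG00000286608, a noncoding gene that starts 1297 bases away on the other strand, had 181 and 284 counts in WT and 126 and 141 in T4A (log2 fold change −0.50, SE 0.23, adjusted p = 0.338 from edgeR's test). A shorter noncoding gene there, ENSG00000274021, overlaps DUSP6 by 1487 bases and had 10 to 16 counts.

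DUSP4, a nuclear phosphatase of ERK and other MAP kinases (17.6 kb on chromosome 8, 29333064 to 29350684), gave 14.6 and 14.7 normalized CPM in WT and 12.6 and 16.2 in T4A. The WT replicates differed by 0.01 on the log2 scale and the T4A replicates by 0.35, with the WT values between the T4A values. The log2 fold change was −0.03 (SE 0.16), and its sign turned with the T4A library left out, from −0.23 without replicate 2 to 0.15 without replicate 1. ENSG00000285601, a noncoding gene 608 bases from its start on the other strand, had 16 to 33 counts.

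SPRY2 and SPRY4 encode Sprouty proteins, which inhibit signaling from receptor tyrosine kinases to RAS. SPRY4 (16.0 kb on chromosome 5, 142310427 to 142326455) had 1290 and 1464 counts in WT and 1459 and 1282 in T4A, or 32.96 and 33.2 normalized CPM in WT and 43.5 and 37.1 in T4A. Both T4A values were higher, the WT replicates differed by 0.01 on the log2 scale, and the log2 fold change was 0.28 (SE 0.11), or 0.17 without T4A replicate 1. SPRY4-AS1, a noncoding gene that overlaps the first 1163 bases of SPRY4 on the other strand, gave 31.9 and 33.6 normalized CPM in WT and 35.2 and 33.9 in T4A (log2 fold change 0.08, SE 0.10, adjusted p = 0.742 from edgeR's test). Most of its span lies outside SPRY4. A pair of short noncoding genes inside SPRY4 on the other strand, ENSG00000277968 and ENSG00000274721, had 0 to 1 counts.

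SPRY2 (5.15 kb on chromosome 13, 80335976 to 80341126) gave 24.3 and 25.5 normalized CPM in WT and 20.7 and 27.0 in T4A. As for DUSP4, the WT values lay between those of T4A. The log2 fold change was −0.06 (SE 0.15), and it was 0.13 without T4A replicate 1 and −0.28 without T4A replicate 2. SPRED1, a protein that brings the RAS inactivator neurofibromin to the membrane, is encoded by a gene of 104 kb on chromosome 15 (38252836 to 38357249). It gave 114 and 127 normalized CPM in WT and 122 and 109 in T4A, with overlapping groups and a log2 fold change of −0.06 (SE 0.10).

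T4A replicate 1 thus lay apart from T4A replicate 2 in either direction. It was the higher of the pair in 7 of the 10 genes and the lower in DUSP4, DUSP6 and SPRY2, beside 58.3% of all tested genes in which it was the higher. The median gap between the T4A replicates was 0.28 on the log2 scale for the 10 genes and 0.18 for all tested genes, while that between the WT replicates was 0.13 and 0.14. The part of this library in the differences between the groups was not tested beyond leaving it out.

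Per kb of gene span, the 10 genes differed 68.7-fold in density. The mean over the 4 libraries was 8.15 normalized CPM per kb for DUSP5, 7.45 for HBEGF, 4.73 for SPRY2, 2.41 for DUSP6, 2.29 for SPRY4, 1.13 for SPRED1, 0.825 for DUSP4, 0.431 for EGFR, 0.376 for AREG and 0.119 for TGFA. The ranges over the libraries overlapped between the neighbours DUSP5 and HBEGF, HBEGF and SPRY2, DUSP6 and SPRY4, and EGFR and AREG, and did not overlap between the other neighbours in this order. HBEGF and DUSP5 stood above 96.7% and 97.1% of the 15329 tested protein-coding genes, and TGFA above 25.5%. EGFR was the 3rd highest of the 10 in counts in WT, yet its span of 193 kb placed it above only 42.6% of protein-coding genes in density. Reads in introns were counted, so a density here is an average over exons and introns of the whole span. The 7 genes under 20 kb had a median log2 fold change of 0.28 and the 3 genes over 100 kb one of −0.06, against −0.04 and −0.09 over all tested protein-coding genes of those lengths. The 10 genes were picked with this contrast known, so no link to length is read from these medians.

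**Figure D3:**
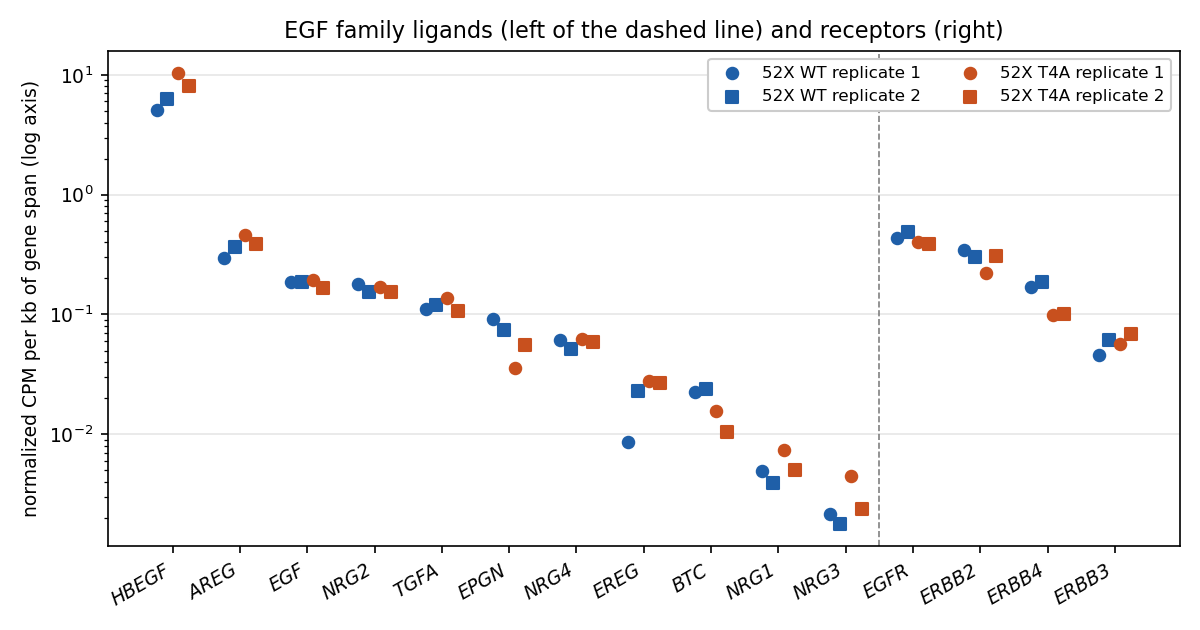
Density (normalized CPM per kb of gene span, log axis) of the EGF family ligands, left of the dashed line, and of the receptors, right of it, in each library, with WT in blue and T4A in orange. HBEGF lies between 5.09 and 10.3, above AREG, the next ligand, and ERBB4 shows 2 T4A values below both WT values.

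To place the ligands and the receptor within their family, the density of all 11 ligand genes and 4 receptor genes was compared. HBEGF had the highest density of the ligands in every library, 17.3 to 22.5 times that of AREG, the next. EGF and NRG2 followed with 0.183 and 0.164 normalized CPM per kb, then TGFA with 0.119. EREG had 8 to 24 counts. NRG3, a neuregulin that binds ERBB4, spans 1112 kb and had 94 and 88 counts in WT and 166 and 92 in T4A, which is 2.40 and 1.996 normalized CPM in WT and 4.95 and 2.66 in T4A. Both T4A values of NRG3 were higher (log2 fold change 0.79, SE 0.32, adjusted p = 0.304 from edgeR's test, unadjusted p below 0.05), and T4A replicate 1 stood apart. Its log2 fold change was 0.29 without T4A replicate 1 and 1.16 without T4A replicate 2. Among the receptors, the mean density was 0.431 for EGFR, 0.294 for ERBB2, 0.139 for ERBB4 and 0.0583 for ERBB3. HBEGF thus had the highest density of the family. In normalized CPM over the whole span, the mean of ERBB4 was above that of HBEGF in WT (207 against 78.6). In T4A it was below (116 against 126).

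ERBB4, the other receptor of HBEGF, had the lowest p-value of the family. It spans 1163 kb and had 7651 and 9604 counts in WT and 3883 and 4023 in T4A, or 195 and 218 normalized CPM in WT and 116 and 116 in T4A. The T4A libraries were nearly alike and both lay below both WT libraries (log2 fold change −0.83, SE 0.09), but the Benjamini-Hochberg adjusted p of edgeR's test was 0.105. Over 11 alternatives its adjusted p ranged from 1.4e-13 to 0.584, it was called in 6 (DESeq2, no filter, the replicate block, and the fits without WT replicate 1, T4A replicate 1 or T4A replicate 2), and with 1 library left out its log2 fold change stayed between −0.92 and −0.77. The density of EGFR was 2.59 and 2.63 times that of ERBB4 in WT and 4.07 and 3.89 times in T4A. The difference between EGFR and ERBB4 in their response was not tested.

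**Figure D4:**
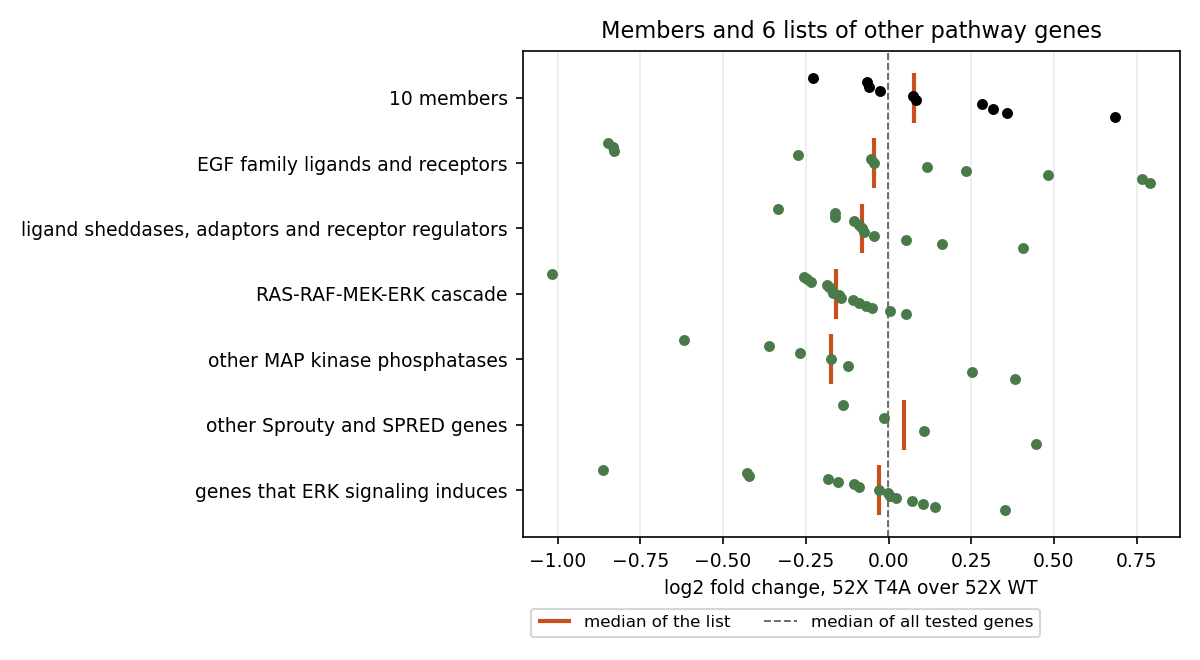
Log2 fold change of 52X T4A over 52X WT for the 10 genes (black) and for 6 lists of other pathway genes (green), 1 point per gene, with each list's median as an orange bar and the median of all tested genes as a dashed line. The RAS-RAF-MEK-ERK list lies mostly left of the line, and the 10 genes have a median of 0.08.

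The other genes of the pathway were taken from 6 lists of 64 genes in all, which all passed the filter. The lists, too, were drawn up with earlier results of these data known. At an adjusted p below 0.05, edgeR's test called 0 of the 64, beside 0.00429% of all tested genes, which is 1 of 23321. At an unadjusted p below 0.05, 4 of the 64 were higher in T4A (6.25%, against 7.45% of all genes) and 5 were lower (7.81%, against 8.02%), so these shares were near those of all genes. The count of 9 moved when single libraries were left out, and the share of all genes was not counted for those fits. DESeq2 called 5 of the 51 with an adjusted p, which were ERBB4, ATF3, EGR1, ERRFI1 and SOS1, beside 7.47% of the 11162 genes of the table with such a value. The median log2 fold change of the 64 genes was −0.09, beside −0.04 for all tested protein-coding genes.

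Among the adaptors and receptor regulators, ERRFI1, which encodes an inhibitor that binds the EGFR kinase domain and is itself induced by EGFR signaling, had 129 and 140 normalized CPM in WT and 193 and 164 in T4A (log2 fold change 0.41, SE 0.11, adjusted p = 0.209 from edgeR's test). Its density, 7.14 normalized CPM per kb, was the highest of that list, beside 7.45 for HBEGF. SOS1, an exchange factor that activates RAS, had 111 and 122 in WT and 94.1 and 91.1 in T4A (log2 fold change −0.33, SE 0.09, adjusted p = 0.218 from edgeR's test). The groups did not overlap for either gene. ADAM17 and ADAM10, the proteases that shed the ligands, had log2 fold changes of −0.16 and −0.08.

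In the cascade from RAS to ERK and its RSK kinases, 14 of 16 genes had a log2 fold change below 0 and the median was −0.16, beside 56.6% of tested protein-coding genes below 0 and a median of −0.04. One gene, HRAS, passed the unadjusted threshold, with 100 and 122 counts in WT and 26 and 64 in T4A (log2 fold change −1.02, SE 0.39, adjusted p = 0.287 from edgeR's test). T4A replicate 1 was the lower of the pair, and the log2 fold change of HRAS was −0.52 without it and −1.79 without T4A replicate 2. NRAS, the gene of this list with the highest density (5.33 normalized CPM per kb), had a log2 fold change of 0.05 (SE 0.10).

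Of the 7 other MAP kinase phosphatase genes, DUSP10 was higher in T4A at the unadjusted threshold (45.4 and 47.3 normalized CPM in WT, 67.6 and 53.2 in T4A) and DUSP1, an immediate early gene and the densest of the list, was lower (182 and 196 in WT, 145 and 170 in T4A). Their log2 fold changes were 0.38 (SE 0.12) and −0.27 (SE 0.11), with adjusted p = 0.247 and 0.294 from edgeR's test. Both differences rest in large part on T4A replicate 1, without which they were 0.21 for DUSP10 and −0.15 for DUSP1, against 0.53 and −0.40 without T4A replicate 2. Against the WT mean, T4A replicate 1 had a list median of −0.44, while that of T4A replicate 2 was 0.06. None of SPRY1, SPRY3, SPRED2 and SPRED3 passed the unadjusted threshold. SPRY1, the densest of them, was at −0.14 (SE 0.13).

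The 15 genes that ERK signaling induces, such as the transcription factors of the FOS and EGR families, had values on either side of 0. Their median log2 fold change was −0.03, with 6 above and 9 below 0. ATF3 was higher in T4A at the unadjusted threshold, with 367 and 356 normalized CPM in WT and 484 and 439 in T4A (log2 fold change 0.35, SE 0.11, adjusted p = 0.237 from edgeR's test). EGR1, the densest of the list, was lower, with 332 and 304 in WT and 205 and 267 in T4A (log2 fold change −0.43, SE 0.13, adjusted p = 0.245 from edgeR's test). The log2 fold change of EGR1 was −0.24 without T4A replicate 1 and −0.65 without T4A replicate 2. FOS was at 0.02 (SE 0.09) and the ERK targets ETV4 and ETV5, both ETS factors, at 0.0039 (SE 0.15) and 0.07 (SE 0.11).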

How the data were processed

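TT-seq libraries of HEK293 cells with an RPB1 degron were compared between 52X WT and 52X T4A, 2 libraries each, grouped by their titles. Per the labels, RNA was fragmented, labeled RNA was biotinylated and pulled down, and strand-specific libraries were made. The authors deposited raw counts per gene for 60708 genes, with columns named for unique alignments. Their processing notes name cutadapt 4.6, STAR 2.7.11b and GRCh38, and the counter's version and annotation are not given in the sources used here. The listed length equals the gene span for all 60708 genes, so introns were counted. Of 19002 protein-coding genes, 99.979% overlapped their GRCh38 position. The GRCh37 genome was not used, and its GENCODE annotation served for symbols and gene types by stable identifier, which matched 58700 genes.

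Genes were tested with edgeR 4.0.16 in R 4.3.3 (TMM, filterByExpr, quasi-likelihood test, Benjamini-Hochberg adjustment over 23321 genes). Normalized CPM are counts scaled by the TMM-adjusted library total. Standard errors were derived from the F statistic. Replicate gaps and profiles used log2 of CPM plus 0.5. Libraries held 33188536 to 45605027 counts, and the counting error of a gene follows from its own count. The script was tested on simulated data. Alternatives were DESeq2 1.42.0, other scaling, no filter, protein-coding genes only, thinning, a replicate block and leaving out each library. The 10 genes, the lists and the tests were chosen with earlier results of these data known. Beside the 10 genes, the text names list genes at an unadjusted p below 0.05, the densest gene of each list, genes that overlap a member or start within 5 kb on the other strand, the 3 genes most like HBEGF and POLR2A. Further list genes (ADAM10, ADAM17, FOS, FOSL1, ETV4, ETV5, JUNB, IER2, CCND1 and those compared by density) were named for their role or after their values were seen. HES4, which is in none of the lists, was named after its values were seen.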

Additional observations from a re-analysis of the deposited data

How the results depend on the processing

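The log2 fold changes of HBEGF, AREG, DUSP5, SPRY4, EGFR and SPRED1 kept their sign in all 11 alternatives, with ranges of 0.50 to 0.84, 0.21 to 0.50, 0.10 to 0.50, 0.17 to 0.38, −0.32 to −0.16 and −0.15 to −0.00087. The sign changed in 4 alternatives for DUSP4, 2 for DUSP6 and 1 each for SPRY2 and TGFA. In place of the 1 gene called by edgeR (1 higher, 0 lower), DESeq2 called 834 (212 higher, 622 lower). DESeq2 was given all genes but applied its own filter, which left 11162 with an adjusted p. The edgeR fit without a filter called 150 (49 higher, 101 lower) and that with the replicate block 533 (205 higher, 328 lower). Libraries that share a replicate number did not deviate together (r = −0.0691 for their deviations over genes), so the block was not taken as a pairing. With 1 library left out, 0 to 3466 genes were called. There the lone library was assumed to vary like the replicated group. A lone library also falls outside the range of the other group more easily, and the share of all tested genes that do so was not counted. Over these 4 fits, the median of the 10 genes ran from −0.0112 to 0.141, the genes with both groups apart from 4 to 7 higher and 1 to 3 lower, and the other pathway genes at an unadjusted p below 0.05 from 4 to 24. Without a filter, edgeR's test put 14 of the other pathway genes (4 higher, 10 lower) at an unadjusted p below 0.05. The share of all genes at that threshold was not counted for that fit. Depth limits AREG, with 114 to 158 counts, and the noncoding neighbours.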

Other observations

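Some short genes that ERK signaling induces were low in T4A replicate 1 alone. They were picked after their values were seen, and the share of all tested genes with this pattern was not counted. Genes outside the lists also showed it. HES4 had 284 and 357 counts in WT and 8 and 274 in T4A replicates 1 and 2. FOSL1, a short gene of the same list, did not, with 90.1 and 86.2 normalized CPM in WT and 93.0 and 101 in T4A. JUNB, which encodes an AP-1 transcription factor, was counted 1906 and 2488 times in WT, 1822 times in T4A replicate 2 and 169 times in T4A replicate 1. In normalized CPM this was 48.7 and 56.4 in WT, 52.7 in T4A replicate 2 and 5.03 in T4A replicate 1. IER2 showed 134 and 128 in WT, 127 in T4A replicate 2 and 68.7 in T4A replicate 1. For CCND1, the cyclin D1 gene, the values were 22.2 and 20.9 in WT, 27.0 in T4A replicate 2 and 13.4 in T4A replicate 1. In the same library HBEGF, AREG, TGFA, DUSP5 and SPRY4 were at their highest of the 4 libraries, and SPRY2 and DUSP4 at their lowest.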
